A study of Mus musculus with 6 samples.

Results

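The data described here are the levels of 10 genes linked to the translation machinery that do not encode ribosomal proteins. These are the small nucleolar RNA (snoRNA) hosts Gas5, Snhg1, Snhg8 and Snhg12, and the coding genes Eef1a1, Eef1b2, Eef2, Tpt1, Npm1 and Pabpc1. They were selected by gene name from the 55471 genes in the count files. RNA was sequenced from the rostral-most telencephalic primordium of E11.5 mouse embryos (E, embryonic day), in 3 control and 3 Rx-Dicer samples. Control embryos were Dicer F/F without Cre, and their title and genotype label reads wild type. Rx-Dicer embryos were RxCre-Dicer F/F, in which Cre is driven by the regulatory sequences of Rax (Rx) and deletes part of Dicer1, the gene of the enzyme that makes mature microRNAs. Cre mice were kept on a CD1 background and floxed mice on C57BL/6. Because controls carried no Cre, its presence and the deletion cannot be told apart. Recombination by this driver is strong in the rostral and ventral telencephalon and weaker in the neocortex, so each Rx-Dicer sample may hold cells that kept Dicer. The labels do not say whether a sample is 1 embryo or a pool, so the p-values measure only the spread between these samples.

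TOP mRNAs begin with a C followed by an uninterrupted run of C and T, the 5′ terminal oligopyrimidine motif. Through this motif the kinase mTORC1 and the RNA-binding protein LARP1 set how many ribosomes a TOP mRNA carries and how long it lasts, so that ribosomal proteins, elongation factors and related proteins are made together when cells grow. Several snoRNA hosts are also TOP RNAs. Their introns release snoRNAs, which guide chemical modification of ribosomal RNA, while the spliced host RNA is often short-lived because it is translated and then removed by nonsense-mediated decay.

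Start sites from RefSeq (assembly GRCm38.p6) were available for 8 of the 10 genes, with entries missing for Npm1 and Pabpc1. Around the annotated start base, the gene's own strand was searched for a C followed by at least 4 bases that are each C or T, with that C at the start or within 3 bases of it. The windows printed here run 30 bases, from 10 bases before the start to the end of the annotated transcript's first 20 bases. A C and T run farther from the start was not counted. The motif lay exactly at the start in 2 of 8 genes and within 3 bases of it in 4 of 8, while 3.01% and 13.5% of 27025 genes with a start site met the same criteria. The 4 windows that hold it there are shown because the motif defines the class, with the match, from its first C to the end of its run of C and T, in capitals: Gas5 at its second start (chr1:161035156-161035185, plus strand), Snhg8 (chr3:123508317-123508346, minus strand), Snhg12 (chr4:132308668-132308697, plus strand) and Eef1a1 (chr9:78481705-78481734, minus strand).
Gas5: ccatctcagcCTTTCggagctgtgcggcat
Snhg8: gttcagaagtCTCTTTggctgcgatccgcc
Snhg12: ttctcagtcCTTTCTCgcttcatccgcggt
Eef1a1: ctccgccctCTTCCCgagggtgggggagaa
In Snhg12 and Eef1a1 the match begins 1 base upstream of the annotated start, and bases that are C or T also precede it. The windows of the other 4 genes, shown for comparison, did not hold the motif at or near the annotated start: Snhg1 (chr19:8723477-8723506, plus strand), Eef1b2 (chr1:63176821-63176850, plus strand), Eef2 (chr10:81176621-81176650, plus strand) and Tpt1 (chr14:75845246-75845275, plus strand).
Snhg1: tcttgtcggcctcatttttccttgttcggg
Eef1b2: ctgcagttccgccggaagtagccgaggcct
Eef2: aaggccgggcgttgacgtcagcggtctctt
Tpt1: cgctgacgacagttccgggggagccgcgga
The search covers the annotated start only, and a gene can start at more than 1 base. Where transcription begins in this tissue was not tested. A match, such as that of Eef1a1, may therefore not be the 5′ end of the RNA, and a true motif may lie elsewhere. Gas5 has an earlier annotated start whose window (chr1:161034591-161034620, plus strand) also lacked the motif. Among cytosolic ribosomal protein genes, 26 of 63 held the motif within 3 bases of the start (41.3%).

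Each sample held 34471501 to 48373468 reads on genes, summed over its 2 files, and 24698 to 26034 genes had at least 1 read. Telencephalic markers (Emx2, Pax6, Sox2, Hes5, Nes, Six3 and Dlx2) were detected in every group, at a summed 1241 to 1363 TPM (counts scaled by exon length and by library total) in the controls and 1046 to 1404 TPM in Rx-Dicer. The targeted gene Dicer1 had normalised counts of 6355, 7070 and 6270 in controls 1 to 3, and of 4777, 7002 and 4644 in Rx-Dicer 1 to 3. Rx-Dicer 1 and 3 lay below all controls, whereas the library labelled Rx-Dicer 2 lay inside the control range (log2 fold change -0.26 ± 0.17 SE, adjusted p = 0.567, DESeq2). This count covers the whole gene, whereas the deletion removes only some exons, so it checks the labels weakly. The estimate of each of the 10 genes and the median of each list are therefore also given without that library.

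The 10 RNAs spanned a wide range of abundance. Together they took 1.42% to 1.70% of the reads on genes in each library. Per length, Eef1a1, which delivers aminoacyl-tRNA to the ribosome, was the most abundant, with a mean of 8409 TPM over the 6 libraries and rank 5 of 25379 genes. Tpt1 (the translationally controlled tumour protein) and Eef2, the factor that moves the ribosome along the mRNA, followed at 1974 and 1944 TPM. The order of that pair was not fixed, since Tpt1 was higher than Eef2 in 3 of 6 libraries. Npm1, a nucleolar chaperone of ribosome assembly, averaged 1472 TPM. Eef1b2, the nucleotide exchange factor that recharges Eef1a1, averaged 619 TPM, and Pabpc1, the cytoplasmic poly(A)-binding protein, 467 TPM. The snoRNA hosts were less abundant: Gas5 averaged 113 TPM, Snhg8 84.2 TPM, Snhg1 38.8 TPM and Snhg12 14.1 TPM. Apart from Tpt1 and Eef2, every neighbouring pair in this order had ranges that did not overlap across the 6 libraries. These levels use the length of all annotated exons, which for the hosts includes transcripts that keep introns and so lowers their TPM. The shallowest member, Snhg12, still rested on 396 to 707 reads per library.

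**Figure D1:**
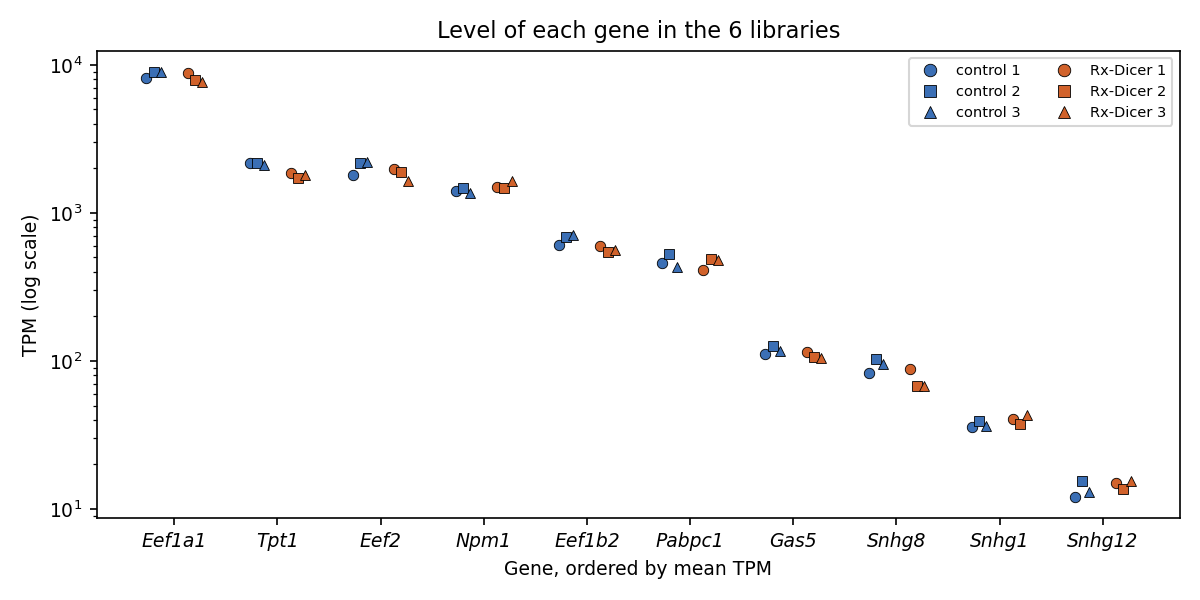
Level of each gene in TPM (log axis) in 3 control (blue) and 3 Rx-Dicer (orange) libraries, 1 point per library with the marker shape giving the replicate number. Eef1a1 lies near 8409 TPM and Snhg12 near 14.1 TPM, and only Tpt1 and Eef2 exchange places between libraries.

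To ask whether loss of Dicer went with a change in these RNAs, normalised counts were compared gene by gene between genotypes. None of the 10 passed the threshold of an adjusted p under 0.05 and a difference over 0.32 on the log2 scale (DESeq2). Over all 17127 genes tested, this rule called 2.93%, with 1.75% higher and 1.18% lower in Rx-Dicer. edgeR called 0 of 10 as well, where it called 0.0446% of all genes. At an unadjusted p under 0.05, DESeq2 had 3 of 10 genes lower in Rx-Dicer (Snhg8, Eef1b2 and Tpt1) and 0 higher, against a background of 13.1% of all genes, 6.11% lower and 6.96% higher. The same cut-off in edgeR took 2 of 10, since Eef1b2 had an unadjusted edgeR p of 0.0515, against 12.9% of all genes. The 3 Rx-Dicer values lay entirely below the 3 control values for 2 genes (Eef1b2 and Tpt1) and above them for 0, where 19.3% of all genes tested separated the genotypes, 10.7% below and 8.55% above. The log2 fold change was negative for 7 of 10 genes, as for 50.1% of all genes, and its median was -0.12 beside -0.0009 over all genes tested. That median was -0.04 without the library labelled Rx-Dicer 2, -0.06 without control 2 and -0.18 without Rx-Dicer 3. In bulk tissue, fewer cells of a type and less RNA per cell cannot be told apart.

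**Figure D2:**
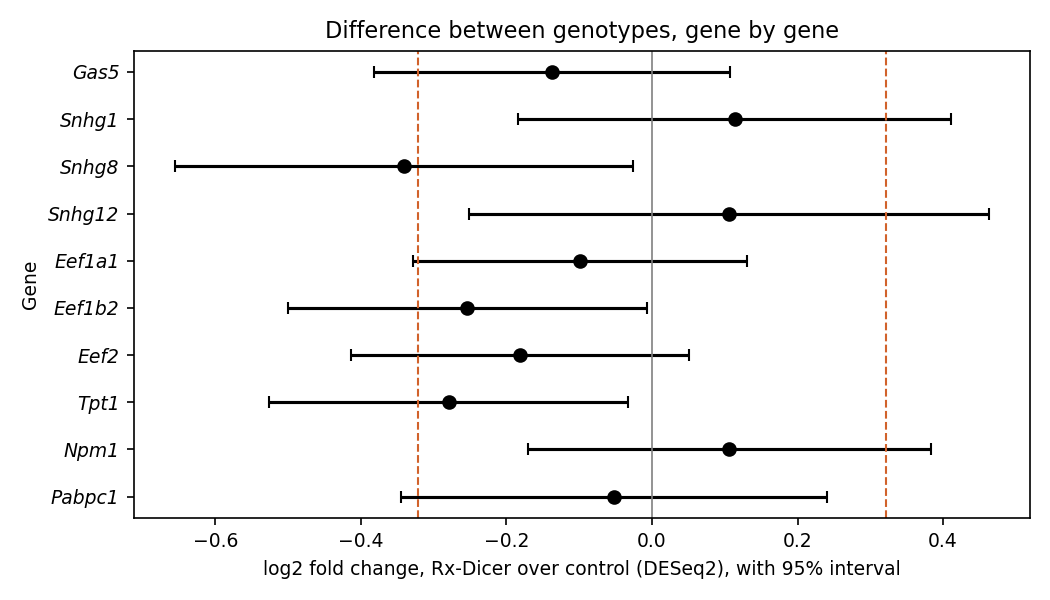
Log2 fold change of each gene, Rx-Dicer over control, from DESeq2 (points) with its 95% interval (bars) over 3 libraries per genotype; dashed lines mark the minimum difference for a call, 0.32 on the log2 scale in either direction. The intervals of Snhg8, Eef1b2 and Tpt1 lie below 0 before adjustment for multiple tests, and the intervals of the other 7 genes include 0.

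Among the snoRNA hosts, Snhg8 had the largest difference and Snhg1 and Snhg12 lay on the other side of 0. Snhg8 (ENSMUSG00000104960, chr3:123507552-123508404, GRCm38, minus strand), host of Snora24, had 1176, 1449 and 1277 normalised counts in controls 1 to 3 and 1177, 854 and 1050 in Rx-Dicer 1 to 3. The library labelled Rx-Dicer 2 was the lowest of the 6, and the groups touched, with Rx-Dicer 1 level with control 1. The means were 1301 ± 138 and 1027 ± 163 (SD, n = 3 each), which gave a log2 fold change of -0.34 ± 0.16 (SE, 95% interval -0.66 to -0.03), with an unadjusted p of 0.0338 and adjusted p of 0.312 (DESeq2). Without the library labelled Rx-Dicer 2 the log2 fold change was -0.22 (adjusted p = 0.622, DESeq2).

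Gas5 (growth arrest-specific 5, ENSMUSG00000053332, chr1:161034422-161038539, plus strand) carries 10 annotated snoRNA genes at 9 distinct loci. Its normalised counts were 6907, 7883 and 6932 in the controls and 6760, 5883 and 7112 in Rx-Dicer. The groups overlapped, with control 2 highest and the library labelled Rx-Dicer 2 lowest. The log2 fold change was -0.14 ± 0.12 (95% interval -0.38 to 0.11, adjusted p = 0.770, DESeq2), and -0.06 without the library labelled Rx-Dicer 2.

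Snhg1 (ENSMUSG00000108414, chr19:8723475-8726443, plus strand) had 1758, 1937 and 1698 normalised counts in the controls and 1880, 1654 and 2301 in Rx-Dicer. Snhg12 (ENSMUSG00000086290, chr4:132308623-132311024, plus strand) had 484, 618 and 492 in the controls and 558, 485 and 672 in Rx-Dicer. For both hosts Rx-Dicer 3 was the highest library and the groups overlapped. The log2 fold change of Snhg1 was 0.11 ± 0.15 (95% interval -0.18 to 0.41), and that of Snhg12 was 0.11 ± 0.18 (95% interval -0.25 to 0.46). Both estimates rested on Rx-Dicer 3: without it they were -0.02 for Snhg1 and -0.03 for Snhg12. Without the library labelled Rx-Dicer 2 they were 0.22 and 0.22.

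The elongation factors all had negative estimates. Eef1b2 (ENSMUSG00000025967, chr1:63176825-63180486, plus strand) had normalised counts of 25669, 28779 and 28394 in the controls and 23600, 20283 and 25606 in Rx-Dicer. The Rx-Dicer libraries lay below every control, with a gap of 62.2 normalised counts between the nearest libraries. The means were 27614 ± 1696 and 23163 ± 2689 (SD, n = 3 each), and the log2 fold change was -0.25 ± 0.13 (95% interval -0.50 to -0.01), with an unadjusted p of 0.0444 and adjusted p of 0.360 (DESeq2). It was -0.16 (adjusted p = 0.607, DESeq2) without the library labelled Rx-Dicer 2.

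Eef1a1 (ENSMUSG00000037742, chr9:78478449-78489151, minus strand) had 335026, 370452 and 347646 normalised counts in the controls and 344938, 292343 and 346075 in Rx-Dicer. Rx-Dicer 1 and 3 lay among the controls and only the library labelled Rx-Dicer 2 lay below them, so that the groups overlapped. The log2 fold change was -0.10 ± 0.12 (95% interval -0.33 to 0.13, adjusted p = 0.853, DESeq2), and -0.02 without that library. Eef2 (ENSMUSG00000034994, chr10:81176631-81182498, plus strand) had 98918, 119583 and 114493 in the controls and 103163, 92269 and 98226 in Rx-Dicer. Control 1 was close to the Rx-Dicer libraries and the groups overlapped. The log2 fold change of Eef2 was -0.18 ± 0.12 (95% interval -0.41 to 0.05, adjusted p = 0.583, DESeq2), and -0.14 without the library labelled Rx-Dicer 2.

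The remaining coding genes are Tpt1, Npm1 and Pabpc1, of which none passed the test. Tpt1 (ENSMUSG00000060126, chr14:75845093-75848525, plus strand) had normalised counts of 85854, 86338 and 78676 in the controls and 68760, 60431 and 77477 in Rx-Dicer. The groups did not overlap, and Rx-Dicer 3 lay 1199 normalised counts under control 3. The means were 83623 ± 4291 and 68889 ± 8524 (SD, n = 3 each), and the log2 fold change of -0.28 ± 0.13 (95% interval -0.53 to -0.03) had an unadjusted p of 0.0267 and adjusted p of 0.277 (DESeq2). Without the library labelled Rx-Dicer 2 it was -0.19 (adjusted p = 0.504, DESeq2), and without Rx-Dicer 3 it was -0.37 (adjusted p = 0.0670, DESeq2), the lowest adjusted p of any of the 10 genes in any alternative tried.

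Npm1 (ENSMUSG00000057113, chr11:33152287-33163206, minus strand) had 62273, 64721 and 57141 normalised counts in the controls and 61783, 57724 and 78723 in Rx-Dicer. Rx-Dicer 3 stood above the other 5 libraries, which overlapped. The log2 fold change was 0.11 ± 0.14 (95% interval -0.17 to 0.38, adjusted p = 0.876, DESeq2), and -0.04 without Rx-Dicer 3. Pabpc1 (ENSMUSG00000022283, chr15:36595661-36609668, minus strand) had 49720, 57309 and 44391 in the controls and 41962, 47449 and 56617 in Rx-Dicer. Both groups covered nearly the same range, and the log2 fold change of Pabpc1 was -0.05 ± 0.15 (95% interval -0.34 to 0.24, adjusted p = 0.963, DESeq2). Without the library labelled Rx-Dicer 2, the estimate was 0.20 for Npm1 and -0.03 for Pabpc1.

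**Figure D3:**
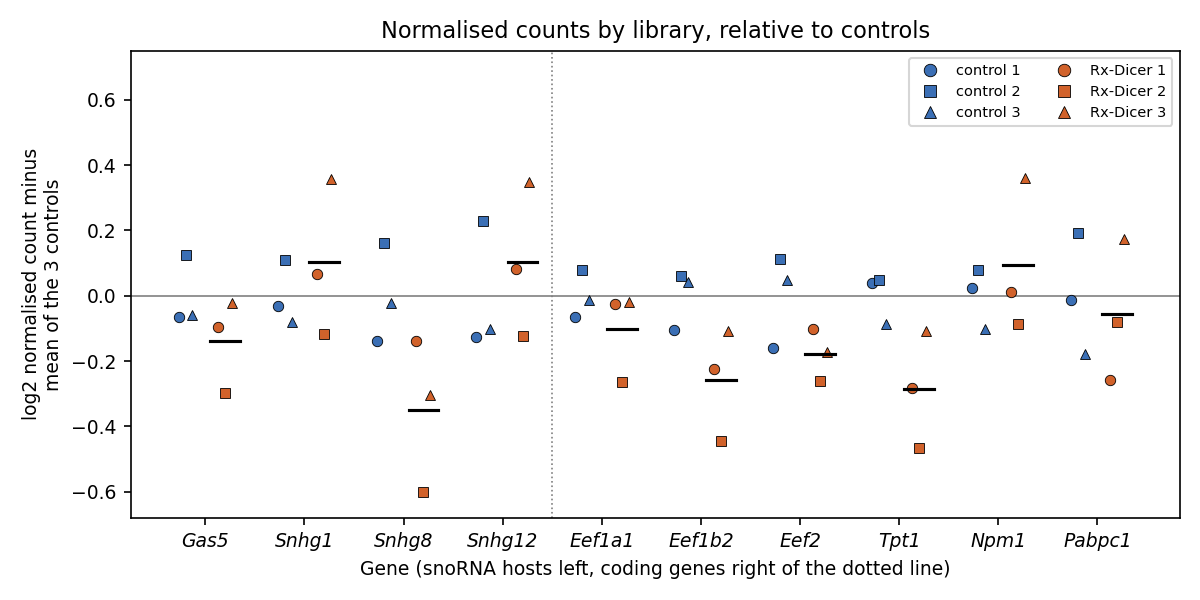
Log2 normalised count of each gene in each library minus the mean of the 3 controls (points: blue control, orange Rx-Dicer, shape for replicate number; black bars: Rx-Dicer mean), with snoRNA hosts left and coding genes right of the dotted line. The square orange points of the library labelled Rx-Dicer 2 are the lowest of 6 in 7 genes, and the orange triangles of Rx-Dicer 3 are the highest in Snhg1, Snhg12 and Npm1.

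The spread within a genotype followed the library. The library labelled Rx-Dicer 2 was the lowest of 6 in 7 of the 10 genes, control 2 was the highest in 7, and Rx-Dicer 3 was the highest in the other 3. Relative to the control mean, the median of the 10 genes on the log2 scale was -0.07, 0.11 and -0.07 in controls 1 to 3 and -0.10, -0.26 and -0.02 in Rx-Dicer 1 to 3. Erythroid RNA also differed between libraries: 5 erythroid markers (Hba-x, Hbb-y, Hbb-bh1, Hba-a1 and Alas2), all of them detected, summed to 39647, 84016 and 38361 TPM in the controls and 41472, 32933 and 76233 TPM in Rx-Dicer. This sum was highest in control 2 and Rx-Dicer 3 and lowest in the library labelled Rx-Dicer 2. Of these, control 2 was the highest library in 7 of the 10 genes, and the library labelled Rx-Dicer 2 the lowest in 7. Rx-Dicer 3 was the highest in only 3, and its median was -0.02. The part of erythroid RNA in the levels of the 10 genes was not tested. The genotypes overlapped in the erythroid sum, and 0 of 5 erythroid markers were called. The 6 microglial markers summed to 21.4 to 23.8 TPM in the controls and 23.6 to 91.7 TPM in Rx-Dicer, and 2 of them were called (Cx3cr1 and Csf1r). Markers of regional identity also moved with genotype. Of the 7 telencephalic markers, 2 were called, in opposite directions: Pax6 was lower (log2 fold change -0.43, adjusted p = 0.0127, DESeq2) and Six3 higher (1.27, adjusted p = 6.3e-06). Of the 6 hypothalamus and eye field markers, 2 were called higher, Otp (3.40, adjusted p = 0.000696, DESeq2) and Vax1 (1.08, adjusted p = 0.00261). Otp was scarce, at 0.0511, 0.0852 and 0.166 TPM in the controls and 1.55, 0.336 and 1.30 TPM in Rx-Dicer. Vax1 was at 9.49, 12.1 and 17.8 TPM in the controls and 24.6, 40.2 and 20.9 TPM in Rx-Dicer. Nkx2-1, which the paper uses to mark the medial ganglionic eminence, was at 0.0777, 1.10 and 4.29 TPM in the controls. In Rx-Dicer it was higher, at 15.4, 44.9 and 25.5 TPM (3.97, adjusted p = 0.0549, DESeq2). The sum of the hypothalamus and eye field list was 239 to 320 TPM in the controls and 303 to 307 TPM in Rx-Dicer. Most of that sum was Lhx2, so it says little about the other markers. Lhx2 was at 290, 307 and 217 TPM in the controls and 263, 217 and 257 TPM in Rx-Dicer (log2 fold change -0.16). The 6 neuronal markers summed to 1130 to 1370 TPM in the controls and 843 to 1290 TPM in Rx-Dicer. Endothelial markers summed to 90.1 to 96.1 and 47.7 to 122 TPM, and mesenchymal markers to 217 to 547 and 318 to 465 TPM. The genotypes overlapped in each of these sums, and 0 of these markers were called. The part of the microglial, regional, neuronal, endothelial and mesenchymal markers in the levels of the 10 genes was not tested.

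**Figure D4:**
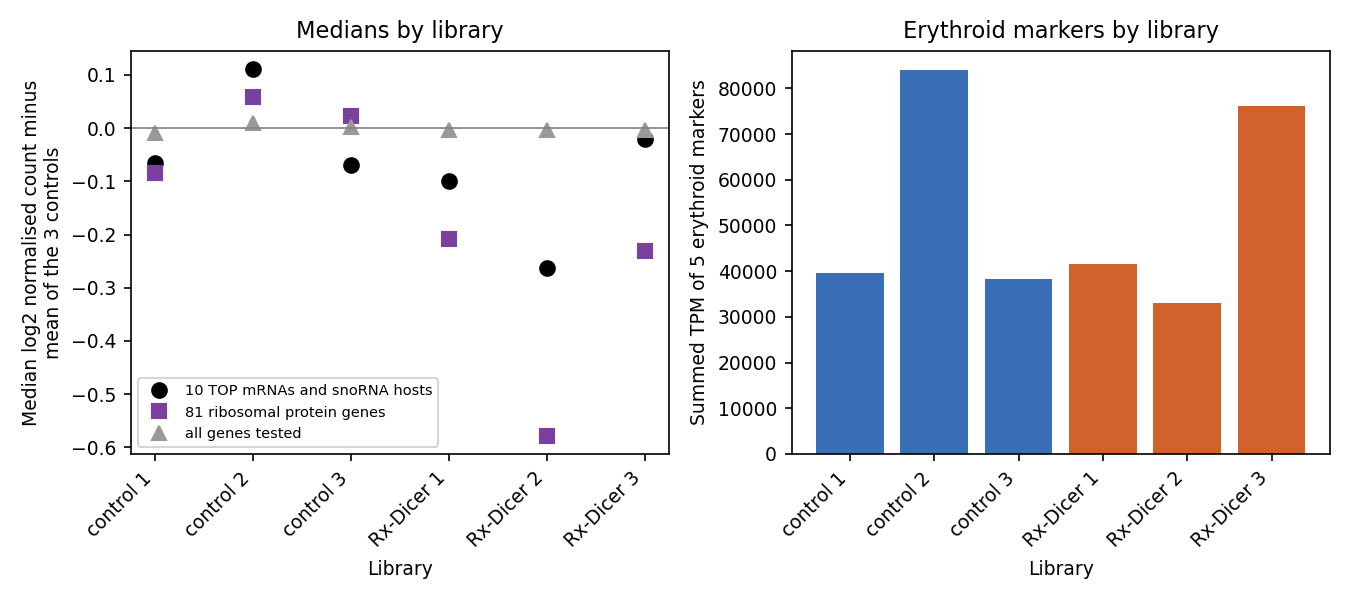
Left, median log2 normalised count relative to the control mean in each library for the 10 genes (black circles), 81 ribosomal protein genes (purple squares) and all genes tested (grey triangles); right, summed TPM of 5 erythroid markers in each library (bars start at 0; blue control, orange Rx-Dicer). The black and purple medians are lowest in the library labelled Rx-Dicer 2 (-0.26 and -0.58), and the erythroid sum is highest in control 2 (84016 TPM) and Rx-Dicer 3 (76233 TPM).

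The scale changed which genes separated the genotypes. Under size factors, Eef1b2 and Tpt1 were the genes whose Rx-Dicer values all lay below controls. On that scale 10.7% of all genes tested lay below in this way, and 19.3% separated in either direction. The share over all genes was not computed on the other scales, so the counts there are a description only. Scaled by the library total alone, Gas5 joined them. In TPM, Eef1b2 and Tpt1 were again lower, and Npm1 lay above all controls, at 1488, 1468 and 1638 TPM beside 1408, 1463 and 1366 TPM. The separation of Eef1b2 and of Tpt1 was present on all 3 scales, and that of Gas5 and Npm1 on 1 each. The scales use the same counts, so their agreement is not independent support.

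The annotation places 29 snoRNA genes inside 7 of the 10 genes on the same strand, which allowed the hosted snoRNAs to be examined beside their hosts. Snord80 in Gas5, Snora16a in Snhg12 and Gm26457 in Eef1b2 each have overlapping entries, so distinct loci are fewer. In Gas5, Snhg1, Snhg8 and Snhg12, all 24 annotated snoRNA genes overlap an annotated exon of the host, and 0 of 24 had a read in any library. Reads that touch several genes were classed as ambiguous, at 1.86% to 2.24% of those on a gene, on no feature or ambiguous. The authors' counting gave reads that touch both host and snoRNA to neither gene, so these zeros do not measure the snoRNAs. For the same reason, reads over the snoRNA bases, which make up 15.2% of the exon length in Snhg8 and 20.9% in Snhg1, are missing from the hosts' counts. The 5 snoRNA genes of Eef1b2, Eef2 and Tpt1 are intronic, and 4 had reads. Snora31, a guide of pseudouridylation in an intron of Tpt1 (chr14:75847905-75848034), had 42, 81 and 64 reads in the controls and 150, 58 and 85 in Rx-Dicer. Rx-Dicer 1 was the highest and the groups overlapped (log2 fold change 0.47 ± 0.37, adjusted p = 0.699, DESeq2). Snora41, in an intron of Eef1b2 (chr1:63179004-63179135), had 9, 16 and 24 reads in the controls and 25, 14 and 14 in Rx-Dicer, with a log2 fold change of -0.03 ± 0.62 (adjusted p = 0.995, DESeq2). The other 2 had at most 5 reads in a library. Reads from the snoRNA and from unspliced host RNA cannot be told apart here.

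Several coding members have annotated pseudogenes of similar sequence that can share their reads. A pseudogene was taken at a minimum of 90% identity over at least 50% of its own length, so a match may cover only part of the member. Eef1a1 had 19 such pseudogenes, Npm1 8, Tpt1 5, Eef2 3 and Eef1b2 1. The reads on them equalled 12.2% to 13.8% of the reads on Npm1 and 7.34% to 8.05% of those on Tpt1, and at most 1.10% for each of the other 3. These percentages overlapped between the genotypes for Tpt1 (7.43% to 7.80% in controls, 7.34% to 8.05% in Rx-Dicer). Pabpc1 and the snoRNA hosts had 0 such pseudogenes. Reads with more than 1 alignment were set aside in the counting, and how many each gene lost in this way was not measured. The levels of Eef1a1, Npm1, Tpt1, Eef2 and Eef1b2 are therefore uncertain.

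Genes of the same pathway gave the context. Of 17 other non-ribosomal TOP mRNAs, 0 were called by DESeq2 or edgeR and 1 had an unadjusted p under 0.05, with 12 negative estimates and a median log2 fold change of -0.09. Single libraries moved this median: it was -0.06 without the library labelled Rx-Dicer 2, -0.0065 with 9 negative estimates without control 2, and -0.19 with 15 negative without Rx-Dicer 3. Eef1g, a further subunit of the eEF1B exchange complex, had 36844, 38255 and 37078 normalised counts in the controls and 31315, 30429 and 32798 in Rx-Dicer. Its groups did not overlap, with a log2 fold change of -0.25 ± 0.10 and an adjusted p of 0.181 (DESeq2), or, without the library labelled Rx-Dicer 2, -0.22 (adjusted p = 0.151). Rack1, a scaffold protein of the small ribosomal subunit, had a log2 fold change of -0.23 (adjusted p = 0.529, DESeq2), or -0.12 without that library. The intermediate filament gene Vim (0.17) and the initiation factor gene Eif4b (0.07) had the highest estimates of this list, and neither passed.

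Among 21 of 23 other snoRNA hosts that could be tested, 0 were called by DESeq2 or edgeR, 1 had an unadjusted p under 0.05 and the median log2 fold change was 0.06, or 0.09 without the library labelled Rx-Dicer 2. With other single libraries left out it lay between 0.01 (without control 3) and 0.13 (without control 2). The highest estimate was that of Snhg14, host of the Prader-Willi region snoRNAs, at 0.49 (adjusted p = 0.289, DESeq2) and 0.20 without the library labelled Rx-Dicer 2, followed by Snhg15 at 0.37. Snhg18 (-0.20) and Epb41l4aos (-0.17) were the lowest. The 8 core proteins of snoRNA particles had a median of -0.06, which turned to 0.04 without the library labelled Rx-Dicer 2 and to 0.0082 without control 2, with 0 called by either tool and 1 at an unadjusted p under 0.05. Nop10, of the pseudouridylation particle, was that gene, with a log2 fold change of -0.38 (adjusted p = 0.255, DESeq2) and no overlap between groups, or, without the library labelled Rx-Dicer 2, -0.21 (adjusted p = 0.418). Nop58 (0.19), Nop56 (0.08) and Nhp2 (-0.17) did not pass.

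Of 16 regulators of TOP mRNA translation, 0 were called by either tool, 1 had an unadjusted p under 0.05 and the median log2 fold change was 0.03, again 0.03 without the library labelled Rx-Dicer 2 and -0.04 without Rx-Dicer 3. Larp4, a poly(A)-binding La-related protein, was that gene, with normalised counts of 3219, 3621 and 3135 in the controls and 3724, 4007 and 4232 in Rx-Dicer. The Rx-Dicer libraries lay above every control (log2 fold change 0.26, adjusted p = 0.289, DESeq2), and without the library labelled Rx-Dicer 2 the estimate was 0.26 (adjusted p = 0.336). Larp1, the TOP motif binding protein, had 0.18, Mlst8, a subunit of mTOR complexes, -0.23 and the translational repressor Eif4ebp2 -0.14. The 10 nonsense-mediated decay factors had a median of -0.03 (-0.04 without that library and 0.03 without Rx-Dicer 1), with 0 called by either tool and 0 at an unadjusted p under 0.05. Smg1, the kinase that phosphorylates Upf1, had 0.24, Smg6 0.03, Smg5 -0.21 and Upf3a -0.11. Of 10 paralogs of the 10 genes, 7 could be tested, with 0 called by either tool, 0 at an unadjusted p under 0.05 and a median of -0.09 (-0.06 without the library labelled Rx-Dicer 2 and -0.04 without control 2). Eef1a2 (0.10), Efl1 (0.10), Eef1d (-0.15) and Pabpc4 (-0.09) were the named ones, and Eef1d and Pabpc4 are also in the list of other TOP mRNAs. Npm2, named after its values were seen because its mean was under 100 normalised counts, had the lowest estimate, -0.70 ± 0.47 (adjusted p = 0.5997, DESeq2).

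**Figure D5:**
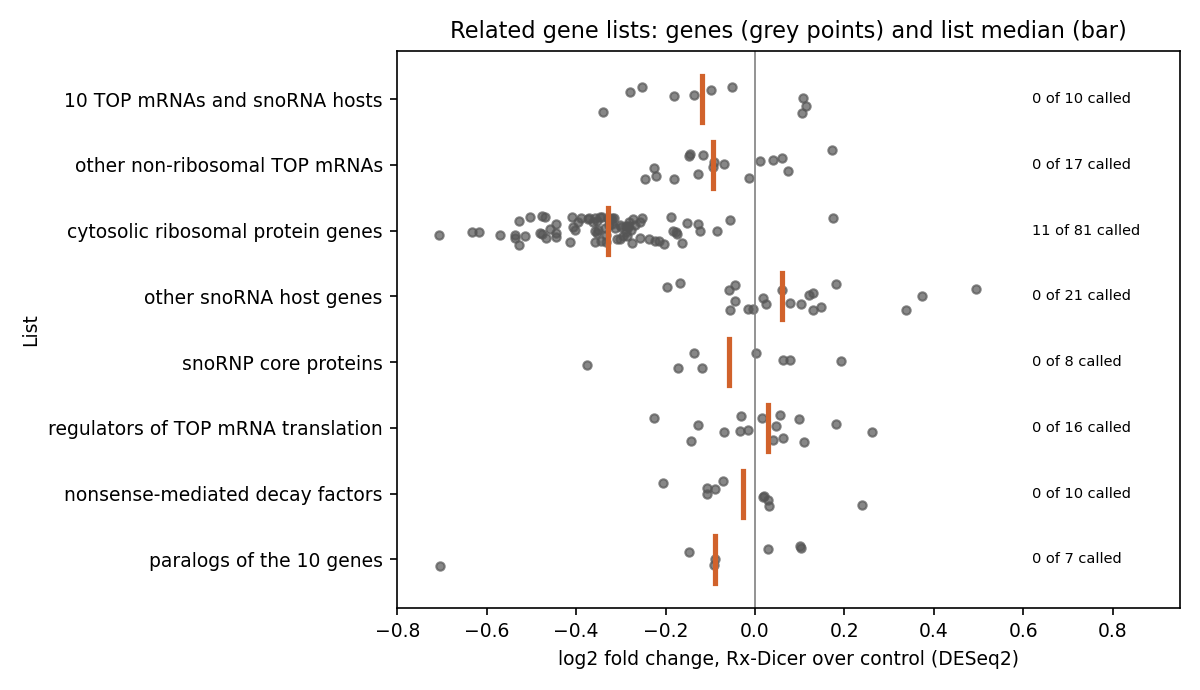
Log2 fold change, Rx-Dicer over control (DESeq2), of each gene in 8 lists (grey points, spread vertically for visibility) with the list median (orange bar) and the number called of those tested. The 10 genes have a median of -0.12, the ribosomal protein genes have a median of -0.33 with 11 of 81 called, and the other lists have 0 called.

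Ribosomal protein mRNAs, the best known TOP mRNAs, were set beside these genes. They were taken by gene name, which also admits ribosomal protein-like paralogs, so not every listed gene need be a TOP mRNA. Of 81 tested, 11 were called, all lower in Rx-Dicer, against 1.18% of all genes called lower. Their median log2 fold change was -0.33, 80 of 81 estimates were negative, and 59 had an unadjusted p under 0.05. Without the library labelled Rx-Dicer 2, the median was -0.22 with 78 negative estimates. The called genes included Rps27a (-0.71, adjusted p = 0.0195, DESeq2), which encodes a ribosomal protein fused to ubiquitin and was at -0.51 (adjusted p = 0.0924, DESeq2) without that library, Rpl29 (-0.63), Rpl41 (-0.62) and Rpl37a (-0.57), and the others were Rpl36a, Rpl35, Rpl31, Rps15, Rps28, Fau and Rps27, at -0.54 to -0.45. Among the 10 non-ribosomal genes, the largest differences (Snhg8 at -0.34 and Tpt1 at -0.28) lay near the ribosomal median, and Snhg1, Snhg12 and Npm1 lay above 0. Whether the lists differ was not tested. By library, the ribosomal median relative to controls was -0.21, -0.58 and -0.23 in Rx-Dicer 1 to 3, where that of the 10 genes was -0.10, -0.26 and -0.02. edgeR called 0 of the 81 ribosomal protein genes, with 51 at an unadjusted p under 0.05, and DESeq2 called 7 without the library labelled Rx-Dicer 2, 1 without control 2 and 1 without control 3.

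Since Dicer makes microRNAs, the 3′ UTRs of the coding genes were searched for the words that pair with the seeds of 4 microRNAs known from embryonic brain or dividing cells. Their mature sequences (RefSeq, GRCm38.p6) are shown because the seed, bases 2 to 8 in capitals, sets the word searched.
mmu-let-7a-5p: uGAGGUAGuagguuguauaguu
mmu-miR-9-5p: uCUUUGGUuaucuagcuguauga
mmu-miR-17-5p: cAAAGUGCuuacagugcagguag
mmu-miR-92a-3p: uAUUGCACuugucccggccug
None of the 6 coding genes held a pairing word on its transcript strand (0 of 6 for each microRNA). Over 14065 coding genes, the let-7a word CTACCTC was present in 12.1% of 3′ UTRs. The miR-9 word ACCAAAG was present in 15.7%, the miR-17 word GCACTTT in 15.1% and the miR-92a word GTGCAAT in 8.12%. Their 3′ UTRs were short, from 288 bases in Eef1a1 to 877 bases in Eef1b2, where the median over those genes was 1393 bases. For the hosts, the longest annotated transcript was searched: Snhg1 held the let-7 word and the miR-9 word, and the other 3 hosts held none of the 4. That of Snhg1 is 2728 bases, and the annotated exons of Snhg1 join into 1 block. The words may therefore lie in bases that the spliced host lacks. The share of other genes with each word was not computed for whole transcripts. These are matches of letters, not measured sites.

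The genes whose profile over the 6 libraries was most like that of the 10 were found among 12886 other genes, by Pearson correlation of log2 normalised counts. With the mean profile of the 4 hosts these were 4833438C02Rik (r = 0.997), Fam136a (r = 0.989), Ppp1r15a (r = 0.988), H1f2 (r = 0.985) and Prmt8 (r = 0.981). With that of the 6 coding genes they were Glrx5 (r = 0.996), Sfrp1 (r = 0.988), Impdh2 (r = 0.987), Ran (r = 0.986) and Coa6 (r = 0.982). Over 6 points that share libraries and scaling, 55 and 51 genes passed r = 0.95, so these values are a description. Within the 10 genes, Snhg1 and Npm1 (r = 0.972) and Gas5 and Eef1a1 (r = 0.959) were the pairs with the highest correlation, and Eef2 and Npm1 (r = -0.12) the pair with the lowest.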

How the data were processed

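The authors deposited raw read counts per gene, with 2 files for each of 6 samples. Per the labels, strand-specific libraries were read as 100 bp paired ends. The submitters' processing notes name Trim Galore 0.6.5, HISAT2, HTSeq 0.12.4, DESeq2 and the build GRCm38.p6. The 2 files of a sample differed by little more than sampling noise (chi-square per degree of freedom 1.13 to 1.52, against 22.5 to 32.6 between samples) and were summed, so n = 3 per group. Rows that name no gene held 24.9% to 31.0% of all reads and were left out. A count of 3, the floor, is 0.0620 to 0.0870 CPM.

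Genotypes were compared with DESeq2 1.42.0 (R 4.3.3; Wald test, median-of-ratios size factors, unshrunken fold changes, Benjamini-Hochberg adjustment over 17127 genes), the test named by the study. A gene was called at an adjusted p under 0.05 and over 1.25-fold. The alternative test was edgeR 4.0.16 (quasi-likelihood), on 17954 genes that had a minimum of 10 counts in 3 or more samples. Both were run on simulated data with larger differences than those of the 10 genes. That run does not show how either test performs at smaller differences. TPM used the length of all exons in GENCODE M21, and pseudogenes were found with BLAST 2.17.0. Other alternatives were TMM factors, total-count scaling, a low-count filter, either file alone, the replicate block, a correction for gene length and GC content, each sample left out, and other thresholds. Named genes are the 10 members, Dicer1, and of each list the called genes without overlap and the 2 highest and 2 lowest estimates among genes with a mean of at least 100 normalised counts; Npm2 fell under that minimum. For likeness the 5 genes with the highest correlation were named, and snoRNAs with a mean of at least 10 normalised counts. Eef1g, Nop10, Larp4 and Vim fall under this rule. The members and lists were chosen with earlier results of these data known. One gene of the telencephalic and 1 of the erythroid marker list are not reported here and were left out of the sums.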

Additional observations from a re-analysis of the deposited data

Results flagged for a closer look

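The share of aligned reads outside annotated genes, which no comparison uses, had a median of 10.46% in the Rx-Dicer libraries and was 8.15% to 9.88% in controls. The 3 Rx-Dicer libraries held 9.04%, 13.2% and 10.5%, so that Rx-Dicer 1 lay inside the control range. This is a signal in data outside the main measurement, and its part in the levels of the 10 genes was not tested.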

How the results depend on the processing

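None of the 10 genes was called under any alternative at the main thresholds. An adjusted p under 0.1 and no fold minimum were each tried on the main fit alone, and also called 0 of the 10. Without Rx-Dicer 3, Tpt1 (-0.37, adjusted p = 0.0670, DESeq2) would pass an adjusted p under 0.1. At the main thresholds, 0 genes of the other lists apart from the ribosomal protein genes were called in any setting. Of 150 estimates of single genes under 15 alternatives each, 143 kept their direction and 7 turned: Snhg1 to -0.0020 with the length and GC correction without replicate block and to -0.0078 with both, and the rest when 1 library was left out. On leaving out 1 library, Snhg1 ran from -0.0247 (without Rx-Dicer 3) to 0.222, Snhg12 from -0.0265 (without Rx-Dicer 3) to 0.229, Npm1 from -0.0387 (without Rx-Dicer 3) to 0.1995 and Pabpc1 from -0.175 to 0.0494 (without control 2; 0.0422 without Rx-Dicer 1). Without Rx-Dicer 3 all 10 estimates were negative. The median of the 10 genes ran from -0.180 (without Rx-Dicer 3) to -0.0433 (without the library labelled Rx-Dicer 2) when 1 library was left out. The number of ribosomal protein genes called was 0 with edgeR, 3 with the replicate block, 6 with the length and GC correction alone, 3 with that correction and the block, and 1 (without control 2 or 3) to 23 (without Rx-Dicer 1) with 1 library left out. Over all genes DESeq2 called 502 and edgeR 8, the replicate block 314, the block combined with the length and GC correction 298, and 286 were called without control 2 and 309 without Rx-Dicer 3. What caused them was not tested. Same-numbered samples did not deviate together (correlations 0.27, -0.06 and -0.29 for numbers 1, 2 and 3), so the numbers only name samples, and the replicate block called 0 of the 10 genes. With 3 samples per genotype, the 95% intervals include 0 for 7 of the 10 genes.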
